A study of Mus musculus with 12 samples.

Results

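The proteasome genes described here are the 36 genes that encode the constitutive proteasome core, its regulatory cap and its activators and inhibitor, chosen by name from the count table and grouped by their place in the complex. They comprise 7 alpha ring genes (Psma1 to Psma7), 7 beta ring genes (Psmb1 to Psmb7), 6 ATPase genes of the cap (Psmc1 to Psmc6), 11 non-ATPase genes of the cap (Psmd1 to Psmd4, Psmd6 to Psmd8 and Psmd11 to Psmd14) and 5 genes for activators and an inhibitor (Psme1 to Psme4 and Psmf1). All 36 were found among the 48795 genes of the table, and all 36 were among the 14676 genes with enough counts to be tested.

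RNA sequencing was performed on mouse long-term hematopoietic stem cells (LT-HSCs) sorted by the level of the stem cell factor receptor c-KIT on their surface, from normal mice and from mice with a chronic myeloid leukemia (CML)-like disease. The CML mice carry Scl-tTA and BCR-ABL transgenes, so that an enhancer of the Scl (Tal1) gene, active in hematopoietic stem and progenitor cells, drives the tetracycline transactivator and the human oncogene is switched on when tetracycline is withdrawn. The labels name the normal mice as B6, whereas the study's methods describe a control group kept on doxycycline, and cells of donor origin were taken from irradiated transplant recipients. LT-HSCs were sorted as CD150+ CD48- Flt3- cells within the Sca-1+ c-KIT+ fraction of lineage-negative cells, and the cells with the most or the least surface c-KIT, by gates set in control mice, formed the c-KIThi and c-KITlo groups. There were 3 libraries in each of the 4 groups, which are normal c-KIThi, normal c-KITlo, CML c-KIThi and CML c-KITlo. The labels call the CML cells leukemic stem cells and describe the replicates as biological without tying a library to an animal, so the p-values measure the spread between these libraries, which may in part be technical.

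The proteasome is the protease that degrades most short-lived and damaged proteins of the cell once they carry ubiquitin chains. The core is a barrel of stacked rings in which the outer alpha rings form a gate and the inner beta rings hold the catalytic sites. The cap binds ubiquitin chains, removes them and uses a ring of ATPases to unfold the substrate and thread it into the core, while other activators open the gate without ubiquitin. Hematopoietic stem cells make protein slowly and are known to be sensitive to an excess of misfolded protein, and proteasome inhibitors have been studied in leukemias.

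Gene counts ran from 7753878 to 9843191 per library in normal c-KIThi, from 14487608 to 31020852 in normal c-KITlo, from 9730576 to 13213021 in CML c-KIThi and from 17653931 to 20749935 in CML c-KITlo cells. All 10 LT-HSC marker genes examined had counts in all 12 libraries, although Slamf1, which encodes CD150, had 1 count in normal c-KITlo replicate 1, and the summed marker level was 939 to 1462 CPM (counts scaled to a common library size) in c-KIThi and 2242 to 4072 CPM in c-KITlo libraries. Kit mRNA did not follow the gate, and in CML it was higher in all c-KITlo than in all c-KIThi libraries. It was at 132, 143 and 129 CPM in normal c-KIThi, 380.0, 675 and 33.6 CPM in normal c-KITlo, 57.6, 104 and 218 CPM in CML c-KIThi and 470.4, 494 and 565 CPM in CML c-KITlo libraries. The study, by qRT-PCR, found no significant difference in Kit mRNA between the gates. Since the gate was set on surface protein, every direction between gates below rests on the labels. Normal c-KITlo replicate 3 stood apart, with the lowest Kit level of all 12 libraries and a summed neutrophil marker level of 6016 CPM against 419 and 44.9 CPM in replicates 1 and 2, and it was the highest of its group for 9 of 9 neutrophil markers. Short genes also followed the gate, since genes with less than 1000 exonic bases took 7.04% to 13.8% of the counts in c-KIThi and 1.40% to 5.46% in c-KITlo libraries. The share of entries that matched several places, which were left out, followed it too. It was 58.9% to 66.9% in c-KIThi and 34.3% to 52.3% in c-KITlo libraries. The part of these shares in the differences between gates cannot be told apart from that of the gate. In bulk samples, fewer cells of a type and less RNA per cell cannot be told apart.

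The promoters of 30 of the 36 genes were matched in RefSeq (GRCm38.p6), and those of Psma3, Psma7 and Psmd2 are shown because these were the 3 proteasome genes that passed the test between the CML gates. Psma3 (ENSMUSG00000060073, chr12:70974621-70996347, plus strand) and Psma7 (ENSMUSG00000027566, chr2:180036374-180042433, minus strand) encode alpha ring subunits. Psmd2 (ENSMUSG00000006998, chr16:20651652-20663414, plus strand) encodes a large scaffold subunit at the base of the cap. Each line gives the 250 bases before the RefSeq start, 5′ to 3′ on the strand of the gene (chr12:70974373-70974622, plus strand, for Psma3; chr2:180042465-180042714, minus strand, for Psma7; chr16:20651402-20651651, plus strand, for Psmd2), with motif matches in capitals.
Psma3: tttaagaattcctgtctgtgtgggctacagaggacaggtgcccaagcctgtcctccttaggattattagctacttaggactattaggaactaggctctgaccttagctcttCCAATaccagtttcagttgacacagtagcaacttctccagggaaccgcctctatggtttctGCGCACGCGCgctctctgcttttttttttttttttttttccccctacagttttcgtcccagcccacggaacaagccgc
Psma7: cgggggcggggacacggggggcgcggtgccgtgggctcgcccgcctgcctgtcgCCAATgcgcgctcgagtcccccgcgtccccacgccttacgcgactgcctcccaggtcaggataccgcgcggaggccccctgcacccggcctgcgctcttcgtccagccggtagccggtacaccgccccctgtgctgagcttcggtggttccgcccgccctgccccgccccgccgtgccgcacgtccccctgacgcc
Psmd2: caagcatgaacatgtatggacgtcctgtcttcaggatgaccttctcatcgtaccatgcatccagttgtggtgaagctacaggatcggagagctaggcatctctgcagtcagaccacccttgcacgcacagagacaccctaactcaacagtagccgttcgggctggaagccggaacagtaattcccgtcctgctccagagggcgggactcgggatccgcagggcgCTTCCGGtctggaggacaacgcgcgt
The capitals mark CCAAT 139 bases and GCGCACGCGC, a match to the nuclear respiratory factor 1 motif, 78 bases before the start of Psma3, CCAAT 196 bases before the start of Psma7, and CTTCCGG, the ETS motif CCGGAAG read on the other strand, 26 bases before the start of Psmd2.

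Windows of 300 bases were read on both strands, from 250 bases before the start to 50 after it, and counted once per gene. The ETS motif CCGGAAG was in 12 of the 30 genes (40.0%, against 9.93% of the 27025 genes in the RefSeq table). The palindromic nuclear respiratory factor 1 motif was in 6 of 30, against 5.19% of all genes, in Psma2, Psma3, Psma4, Psmc4, Psmc5 and Psmd14. CCAAT was in 11 of 30 (36.7%, against 41.06% of all genes). The antioxidant response element TGACNNNGC is the kind of site bound by the NRF1 and NRF2 factors. It was in 5 of 30 (16.7%, against 13.99% of all genes), in Psmb5, Psmb6, Psmc6, Psmd12 and Psme4. The ETS matches lay mostly in cap genes, in Psmc1, Psmc2, Psmc6, Psmd2, Psmd4, Psmd6, Psmd11, Psmd12 and Psmd13, with Psma6 the only core gene and Psme3 and Psme4 the activators. These matches describe letters in the window and are not binding sites.

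Transcript levels were compared between genes as CPM per 1000 bases of the main transcript (the principal coding transcript of the annotation), averaged over the 12 libraries. The highest mean was that of Psmb6 (1411 CPM per kb) and the lowest that of Psme4 (3.17 CPM per kb), with a median of 185 CPM per kb over the 36 genes. By sub-complex, the median level was 193 CPM per kb in the alpha ring (31.5 for Psma3 to 1376 for Psma7), 337 in the beta ring (67.9 for Psmb7 to 1411 for Psmb6), 228 among the ATPases (43.5 for Psmc6 to 388 for Psmc3), 103 among the non-ATPase cap genes (56.2 for Psmd11 to 292 for Psmd8) and 77.7 among the activators and inhibitor (3.17 for Psme4 to 549.6 for Psme1). Psmb6 and Psmb7, both catalytic, were at opposite ends of their ring in this mean. The order of the highest genes depended on the gate, since Psma7 was above Psmb6 in normal and CML c-KIThi cells (1604 against 1494 and 2176 against 1806 CPM per kb) and below it in normal and CML c-KITlo cells (1179.6 against 1788 and 544 against 556). Among the non-ATPase cap genes, Psmd1 was below Psmd11 in both c-KIThi groups. For genes with several transcripts this scale depends on which one is used, since Psma3, at 2846 bases, also has annotated coding transcripts of 859 and 312 bases.

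Together the 36 genes took 0.913% to 1.86% of the gene counts of a library. Their summed level was 11634 to 18432 CPM in normal c-KIThi, 6894 to 21674 CPM in normal c-KITlo, 11762 to 20026 CPM in CML c-KIThi and 7108 to 7758 CPM in CML c-KITlo libraries. The 3 CML c-KITlo libraries were the closest to each other and all lay below the 3 CML c-KIThi libraries. The normal c-KITlo group held the lowest and the highest library of all 12, replicate 2 and replicate 3.

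**Figure D1:**
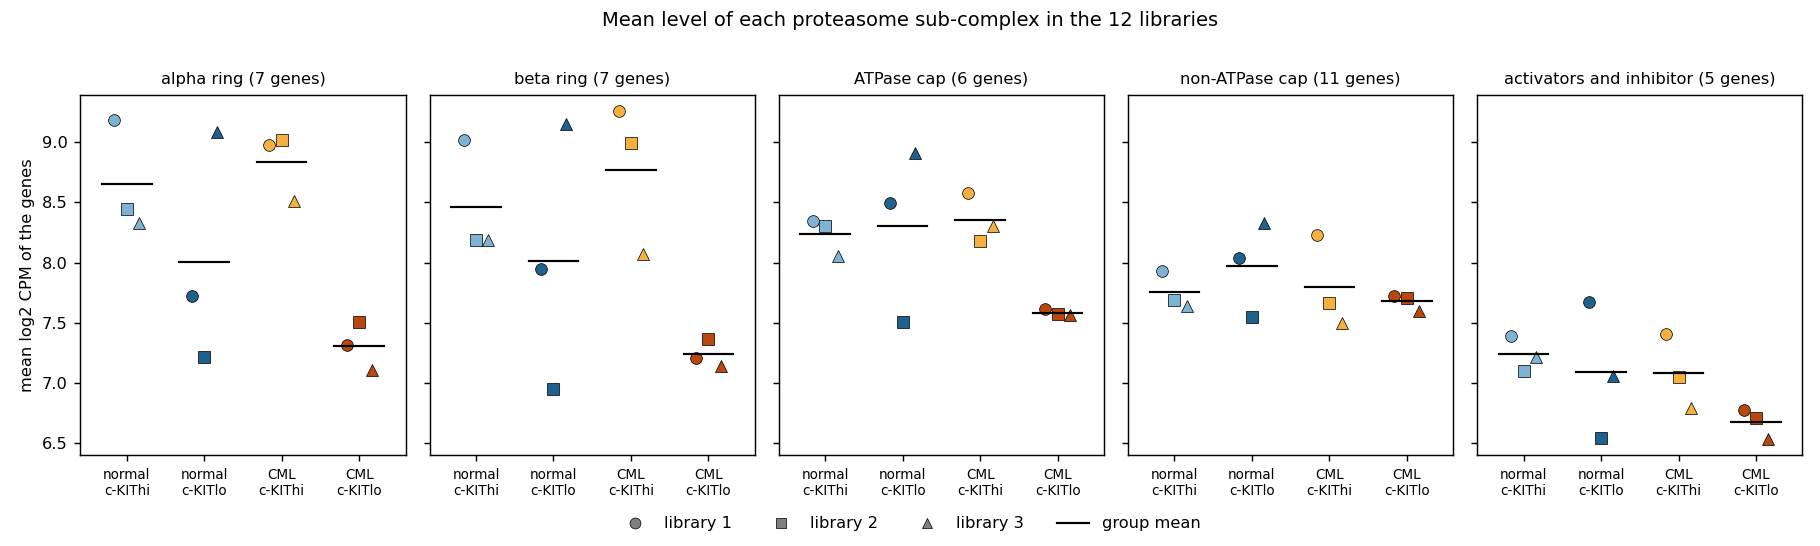
Mean log2 CPM of the genes of each sub-complex in each of the 12 libraries, by group, with 1 symbol per library and a line at the group mean. The alpha ring means of the 3 CML c-KITlo libraries (7.31, 7.504 and 7.11) lie below those of all CML c-KIThi libraries (8.98, 9.02 and 8.51), as do the beta ring means, while the non-ATPase cap means of the 2 groups overlap.

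Within CML LT-HSCs, the core was lower in the c-KITlo than in the c-KIThi libraries, while Psmd2, a large scaffold subunit of the cap, was higher. Of the 36 genes, 3 passed the test at an adjusted p below 0.05, a share close to that of all genes tested, 8.44% (2.91% that rose and 5.53% that fell). Psmd2 rose by 1.77 on the log2 scale, whereas Psma3 and Psma7 fell. All 14 core genes, and 31 of the 36 genes, had a log2 fold change below 0, with a median of -1.72 for the core and -1.03 for all 36 genes, beside a median of 0.047 over all genes tested. At an unadjusted p below 0.05 there were 24 of the 36 genes, of which 20 were below and 4 above 0. In 25 genes the 3 c-KITlo libraries lay below the 3 c-KIThi libraries, and in 4 (Psmd1, Psmd2, Psmd3 and Psme3) they lay above them, where 23.6% and 27.6% of all genes tested were separated in the same directions and 51.2% in either.

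The alpha ring held both genes that fell. Psma3 was at 136, 145 and 186 CPM in the CML c-KIThi libraries and 45.0, 54.7 and 39.0 CPM in the CML c-KITlo libraries. The groups did not overlap, and the log2 fold change was -1.75 ± 0.43 (SE, edgeR adjusted p = 0.0313). Psma7, named after its values were seen because it completes the count, was at 1821, 2547 and 1599 CPM and 502, 536 and 454 CPM. Again all c-KITlo libraries were below all c-KIThi libraries, and the level was 4.0-fold lower in c-KITlo (SE of 0.53 on the log2 scale, edgeR adjusted p = 0.0385). In the other 5 alpha genes (Psma1, Psma2, Psma4, Psma5 and Psma6) the c-KITlo libraries were also below all c-KIThi libraries, with log2 fold changes between -1.17 and -1.83 and adjusted p-values above 0.05.

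No beta ring gene passed edgeR's test, although 6 of 7 had an unadjusted p below 0.05, and DESeq2 called 6 of 7 and limma-voom 7 of 7 lower. Psmb1, which had the smallest p of the ring, was at 1081, 1207 and 527 CPM in CML c-KIThi and 240.2, 279.6 and 220.0 CPM in CML c-KITlo libraries. These groups did not overlap, and the log2 fold change was -1.93 ± 0.57 (edgeR adjusted p = 0.0546). Of the catalytic subunits, Psmb6, which carries the caspase-like site, was at 2092, 1574 and 657 CPM and 401, 485 and 444 CPM. Its lowest c-KIThi library, replicate 3, was still above all c-KITlo libraries (-1.70 ± 0.63, edgeR adjusted p = 0.103). Psmb7, with the trypsin-like site, was at 116, 118 and 89.2 CPM and 52.0, 56.4 and 41.8 CPM, again without overlap (-1.11 ± 0.39, edgeR adjusted p = 0.0892). Psmb5, which carries the chymotrypsin-like site that bortezomib binds best, was at 252, 144 and 63.3 CPM and 76.2, 79.0 and 75.3 CPM. It was the one core gene whose groups overlapped, since CML c-KIThi replicate 3 lay below all c-KITlo libraries (-0.995 ± 0.56, edgeR adjusted p = 0.281). Psmb5, Psmb6 and Psmb7 have processed pseudogene copies, of which Psmb6-ps2 held the most, 6 to 59 counts per library, and since reads that matched several places were not counted these 3 genes may be undercounted. Psmb5 also overlaps Mir686 over 12.1% of its exonic length and Psmb7 overlaps Nek6 over 11.8%.

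None of the 6 ATPase genes of the cap passed edgeR's test (3 at an unadjusted p below 0.05, and 3 called by each of DESeq2 and limma-voom). Their log2 fold changes were all below 0, from -1.36 to -0.506 with a median of -0.77. Psmc6 was at 76.4, 88.3 and 229 CPM in CML c-KIThi and 58.1, 49.0 and 46.7 CPM in CML c-KITlo libraries, where replicate 3 of c-KIThi was the highest and no library overlapped (-1.36 ± 0.47, edgeR adjusted p = 0.0862). Psmc4 was at 551, 319 and 240.5 CPM and 259, 250.1 and 273 CPM, and its groups overlapped (-0.51 ± 0.43, edgeR adjusted p = 0.477).

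The non-ATPase cap genes were split. Psmd2 was at 145, 76.2 and 139.9 CPM in CML c-KIThi and 395, 359 and 479.5 CPM in CML c-KITlo libraries. Every c-KITlo library was above every c-KIThi library, and the gene passed the test (1.77 ± 0.43, edgeR adjusted p = 0.0296). Psmd1 (chr1:86064387-86139151, plus strand), the other large scaffold subunit of the base, was at 146, 105 and 119 CPM and 271, 274 and 228 CPM. The c-KITlo libraries were again all higher, but the gene did not pass edgeR's test (1.06 ± 0.40, edgeR adjusted p = 0.108). It was called higher by limma-voom and not by DESeq2. Psmd3, a lid subunit named after its values were seen, was at 211, 92.7 and 86.3 CPM and 331, 255 and 267 CPM with the same order of the groups (1.13 ± 0.39, edgeR adjusted p = 0.0868). DESeq2 and limma-voom called Psmd3 higher. The main transcripts of Psmd1, Psmd2 and Psmd3 have 3112, 2961 and 2148 bases, above the median of the non-ATPase cap, 1904 bases. Over the 21 alternative settings, which include the length corrections, the log2 fold changes of these genes stayed above 0. They ran from 0.20 to 1.22 for Psmd1, 0.98 to 2.02 for Psmd2 and 0.31 to 1.69 for Psmd3.

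The other 8 non-ATPase genes had log2 fold changes below 0, from -1.13 to -0.352, and none passed edgeR's test, whereas DESeq2 called Psmd6 lower and limma-voom called Psmd4, Psmd6, Psmd8, Psmd12 and Psmd14 lower. Psmd14, the deubiquitinase that removes ubiquitin chains at the lid, was at 395, 311 and 240.4 CPM and 153, 174 and 105 CPM (-1.13 ± 0.47, edgeR adjusted p = 0.143). Psmd4, a ubiquitin receptor, was at 629.6, 349.7 and 325 CPM and 248, 201 and 252 CPM (-0.89 ± 0.44, edgeR adjusted p = 0.21). Both were lower in all c-KITlo than in all c-KIThi libraries, as were Psmd6, Psmd8, Psmd11 and Psmd12. The 11 genes of the non-ATPase cap thus covered a range of -1.13 to 1.77, while the 14 core genes covered -2.05 to -0.995.

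The activators differed among themselves and none passed edgeR's test (3 at an unadjusted p below 0.05, 2 called by DESeq2 and 3 by limma-voom). Psme1 and Psme2 form the activator ring that interferon gamma induces. Psme1 was at 1091, 1051 and 510.2 CPM in CML c-KIThi and 302, 296 and 283 CPM in CML c-KITlo libraries (-1.59 ± 0.57, edgeR adjusted p = 0.0972). Psme2, which has a near copy, Psme2b (68 to 313 counts per library), was at 496, 377 and 146 CPM and 95.3, 89.9 and 95.3 CPM (-1.86 ± 0.61, edgeR adjusted p = 0.0759). Their c-KITlo libraries all lay below the c-KIThi libraries, and DESeq2 and limma-voom called both lower. Psme3, which encodes the nuclear activator of the same family, was at 151, 109 and 134 CPM and 278, 246 and 212 CPM, the opposite order, also without overlap (0.90 ± 0.33, edgeR adjusted p = 0.106). The log2 fold change of Psme3 ran from 0.26 to 1.04 over the 21 alternative settings. Psmf1, which encodes an inhibitor of the core, was at 191, 86.5 and 74.3 CPM and 117, 108 and 126 CPM, with overlapping groups and a log2 fold change of -0.00355 ± 0.41. Psme4, the single-chain activator, was low and variable at 8.77, 10.6 and 22.0 CPM and 16.7, 17.3 and 9.42 CPM (0.071 ± 1.03).

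**Figure D2:**
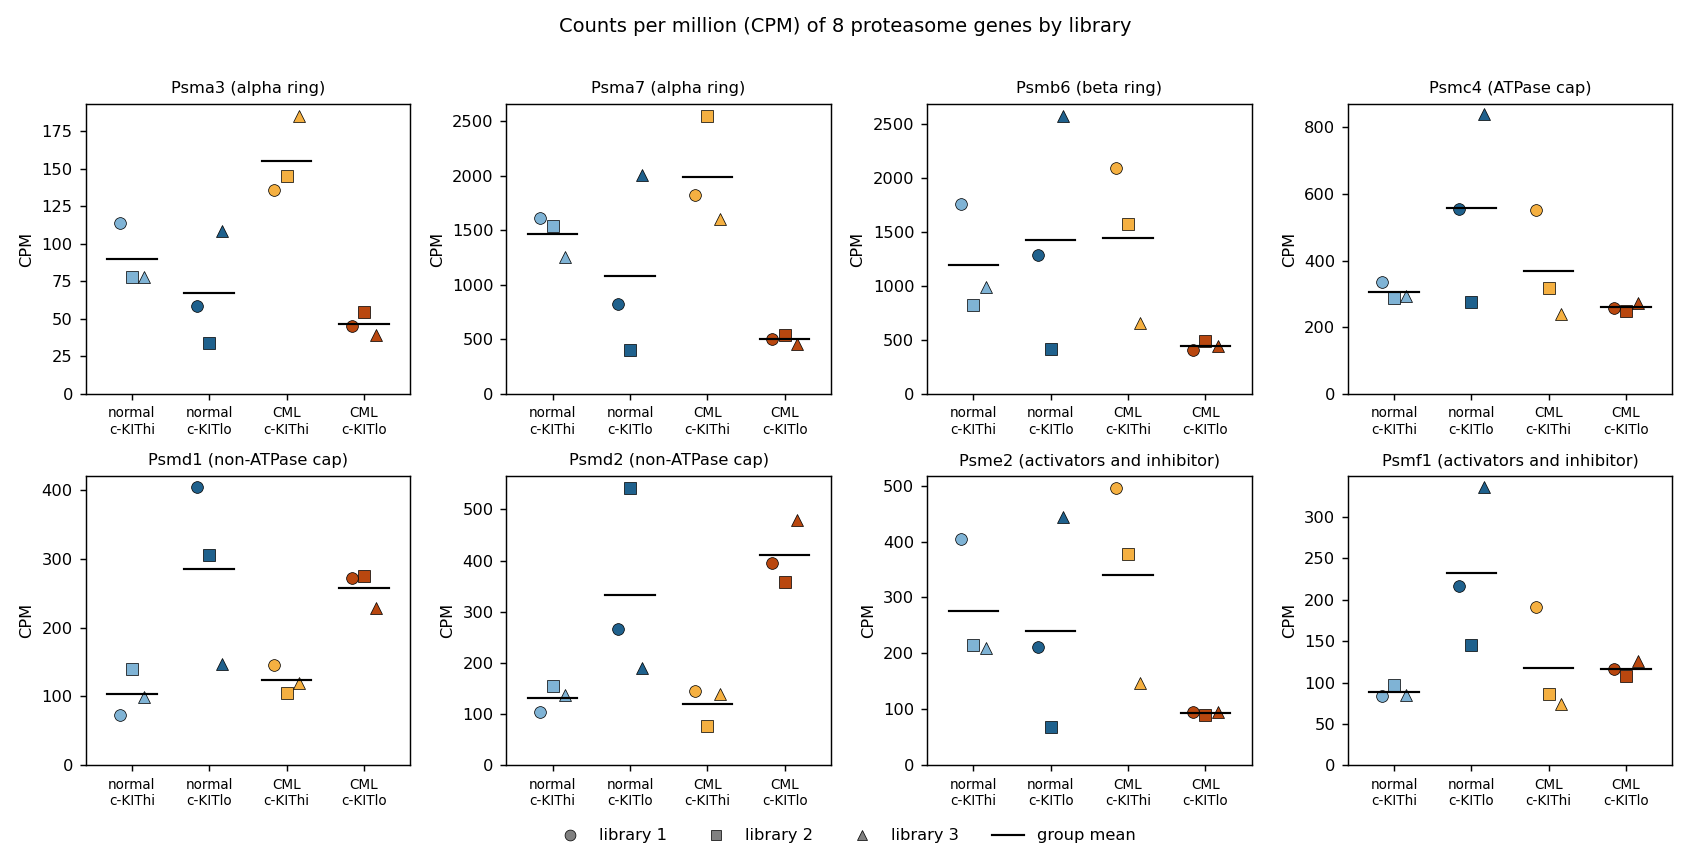
CPM (linear axes from 0, each panel with its own scale) in the 12 libraries for 8 proteasome genes of the 5 sub-complexes, with 1 symbol per library and a line at the group mean. Psma3 lies between 39.0 and 54.7 CPM in CML c-KITlo and between 136 and 186 CPM in CML c-KIThi libraries, and Psmd2 shows the reverse order.

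Which proteasome genes passed between the CML gates depended on the test and on single libraries, while 13 of the 14 core genes stayed below 0 under all 21 alternative settings, the exception being Psmb5, which was at 0.43 with the exonic length trend and 0.37 with the main transcript length trend taken out. DESeq2 called 20 genes (2 higher and 18 lower in c-KITlo) and limma-voom 28 (4 higher and 24 lower), and a fit to the 6 CML libraries alone called 23. Without CML c-KIThi replicate 2 or 3, or without any 1 of the 3 CML c-KITlo libraries, 0 genes passed edgeR's test; 1 passed without CML c-KIThi replicate 1 or normal c-KIThi replicate 2 or 3, 2 without normal c-KIThi replicate 1, 5 without normal c-KITlo replicate 1, 15 without normal c-KITlo replicate 2 and 12 without normal c-KITlo replicate 3. Of marker lists, the monocyte and dendritic sum, nearly all of it Lyz2, was 608 to 1044 CPM in CML c-KIThi and 379 to 426 CPM in CML c-KITlo libraries, with 1 of 6 markers higher in all c-KIThi than in all c-KITlo libraries and 1 lower, and the T and NK sum, mostly Nkg7, was 309.6 to 1089 CPM and 182 to 228 CPM, with Cd3e at 0 counts in all 6. The B cell sum, nearly all of it Cd79b, was 114 to 175 CPM in CML c-KIThi and 66.1 to 92.3 CPM in CML c-KITlo libraries (1 of 6 markers higher in all c-KIThi libraries and 1 lower). The erythroid sum was 76.8 to 259 CPM and 53.2 to 69.9 CPM (1 of 6 higher), and the endothelial sum had the opposite order, at 45.9 to 66.3 CPM and 90.1 to 113 CPM (2 of 4 lower in all c-KIThi libraries). Their part in the difference was not tested.

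In normal LT-HSCs no proteasome gene passed between the gates, 12 of the 14 core genes were below 0 and the scaffold genes Psmd1 and Psmd2 were above 0. None of the 36 genes passed edgeR's test between c-KITlo and c-KIThi, against 6.5% of all genes tested (3.1% that rose and 3.4% that fell), with 3 at an unadjusted p below 0.05. DESeq2 called those 3 genes (Psmd1, Psmd2 and Psmf1) and limma-voom called 0. The median log2 fold change was -0.43 for the core, 0.34 for the ATPases, 0.22 for the non-ATPase cap and 0.012 for the activators and inhibitor, beside 0.16 over all genes tested. In 4 genes (Psmd1, Psmd2, Psmd3 and Psmf1) the c-KITlo libraries all lay above the c-KIThi libraries, and in 0 below, where the shares of all genes were 11% and 12.6%, and 23.6% in either direction.

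Psmd1 was at 73.7, 139.8 and 99.0 CPM in normal c-KIThi and 404, 305 and 147 CPM in normal c-KITlo libraries. The lowest c-KITlo value, in replicate 3, was just above the highest c-KIThi value, and the log2 fold change was 1.45 ± 0.40 (edgeR adjusted p = 0.0502). Psmd2 was at 104, 155 and 137 CPM and 267, 542 and 190.0 CPM (1.33 ± 0.43, edgeR adjusted p = 0.0763). Psmf1 was at 84.1, 97.5 and 84.9 CPM and 216, 145 and 336 CPM (1.39 ± 0.42, edgeR adjusted p = 0.0676). Psmd2 was highest in normal c-KITlo replicate 2 and Psmf1 in replicate 3, and neither gene overlapped between the gates. Psmd3 was at 172, 115 and 156 CPM and 285, 187 and 237 CPM, the highest c-KIThi library being closest to replicate 2 of c-KITlo (0.68 ± 0.39, edgeR adjusted p = 0.297).

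In the normal core, normal c-KITlo replicate 3 was above the other replicates of its group in all values given here. Psma6, the alpha gene with the smallest p, was at 1587, 674 and 769 CPM in c-KIThi and 246, 246 and 1061 CPM in c-KITlo libraries (-0.96 ± 0.58, edgeR adjusted p = 0.325). Psmb1 was at 1259, 757 and 572 CPM and 355, 184 and 898 CPM (-0.85 ± 0.55, edgeR adjusted p = 0.367). Replicates 1 and 2 of c-KITlo lay below all c-KIThi libraries for both genes and replicate 3 lay among them. Psma3 was at 114, 78.2 and 77.9 CPM and 58.7, 33.8 and 109 CPM (-0.42 ± 0.42), and Psma7 at 1608, 1536 and 1253 CPM and 822, 404 and 2008 CPM (-0.44 ± 0.51). Replicates 1 and 2 were again below all c-KIThi libraries, and replicate 3 was the highest of all for Psma7. Without replicate 3 the core median was -0.98, beside -0.13 over all genes, and 4 genes passed, of which Psmd1 and Psmd2 rose and Psma6 and Psmb2 fell.

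None of the 3 catalytic genes passed between the normal gates. Psmb5 was at 123, 74.0 and 79.4 CPM and 122, 60.1 and 272 CPM (0.71 ± 0.56). Psmb6 was at 1756, 827 and 994 CPM and 1284, 418 and 2577 CPM (0.26 ± 0.61). Psmb7 was at 114, 67.2 and 73.8 CPM and 66.8, 47.7 and 101 CPM (-0.24 ± 0.38). Each of the 3 had its lowest c-KITlo value in replicate 2 and its highest in replicate 3, with overlap of the gates. Without replicate 3 the log2 fold changes were 0.00635 for Psmb5, -0.46 for Psmb6, which thereby changed sign, and -0.54 for Psmb7, with none past the threshold. In the cap, Psmc4 was at 335, 287 and 295 CPM and 557, 274 and 840.0 CPM (0.87 ± 0.43, edgeR adjusted p = 0.221). Psmc6 was at 104, 173 and 117 CPM and 108, 52.5 and 66.2 CPM (-0.80 ± 0.46). These ATPase genes overlapped between the normal gates. Psmd4 was at 321, 279 and 331 CPM and 453, 225 and 769 CPM (0.64 ± 0.44). Psmd14 was at 366, 303 and 195 CPM and 179, 90.8 and 348 CPM (-0.48 ± 0.47). Both also overlapped. Of the activators, Psme1 was at 949, 414 and 529 CPM and 606, 192 and 1109.9 CPM. Psme2 was at 405, 215 and 209 CPM and 211, 68.7 and 443 CPM. Psme4 was at 23.0, 21.6 and 37.0 CPM and 69.0, 10.7 and 1.22 CPM. The value of 1.22 CPM for Psme4 in normal c-KITlo replicate 3 was the lowest of any proteasome gene in any library.

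**Figure D3:**
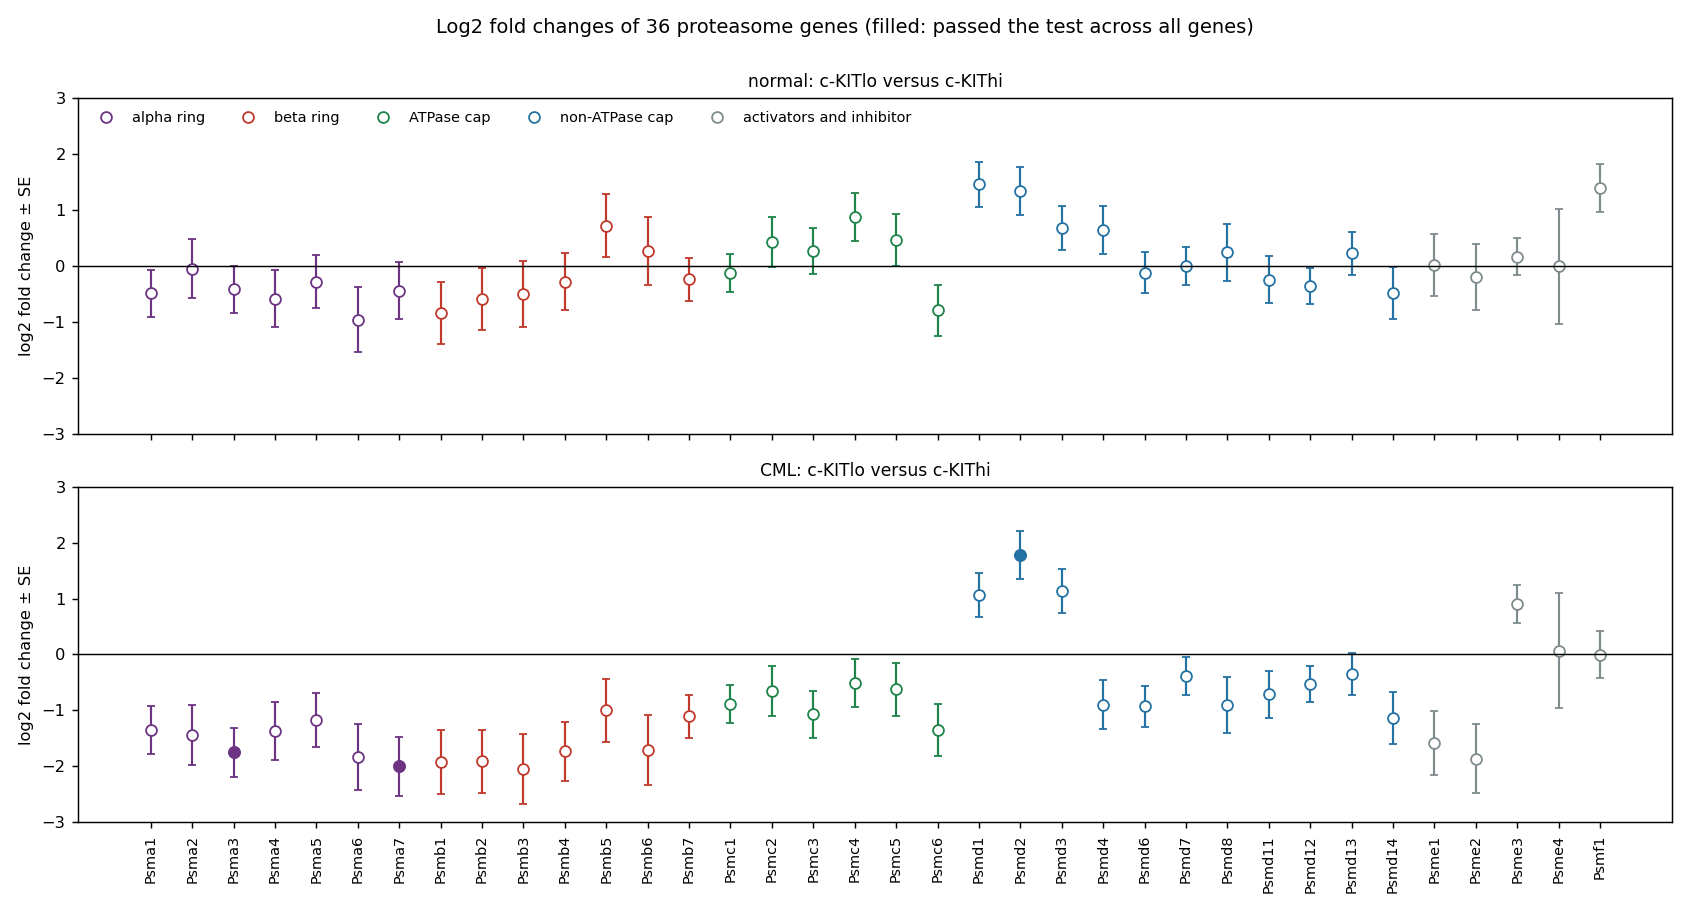
Log2 fold change of c-KITlo over c-KIThi (points, with bars for the standard error) for each of the 36 proteasome genes in normal and in CML cells, ordered by sub-complex, with filled points for genes that passed the test across all genes. In CML all 14 core genes lie below 0 (-2.05 to -0.995), and Psmd1, Psmd2 and Psmd3 lie above 0 in both.

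The level of the core relative to the cap was described per library as the mean log2 CPM of the 14 core genes minus that of the 11 non-ATPase cap genes. It was 1.17, 0.63 and 0.63 in normal c-KIThi, -0.20, -0.47 and 0.79 in normal c-KITlo, 0.89, 1.35 and 0.79 in CML c-KIThi and -0.47, -0.27 and -0.48 in CML c-KITlo libraries. The CML c-KITlo libraries were all below 0 and the CML c-KIThi libraries all above 0. In the normal gates, replicates 1 and 2 of c-KITlo were below 0 and replicate 3 lay within the range of the c-KIThi libraries. The group means were 0.81 ± 0.32 (SD, n = 3) in normal c-KIThi, 0.040 ± 0.67 in normal c-KITlo, 1.01 ± 0.29 in CML c-KIThi and -0.41 ± 0.12 in CML c-KITlo cells, so that the gates differed by -1.42 in CML and by -0.77 in normal cells. The core minus the ATPases had means of 0.33 ± 0.39, -0.29 ± 0.45, 0.45 ± 0.43 and -0.31 ± 0.16 in the same order.

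**Figure D4:**
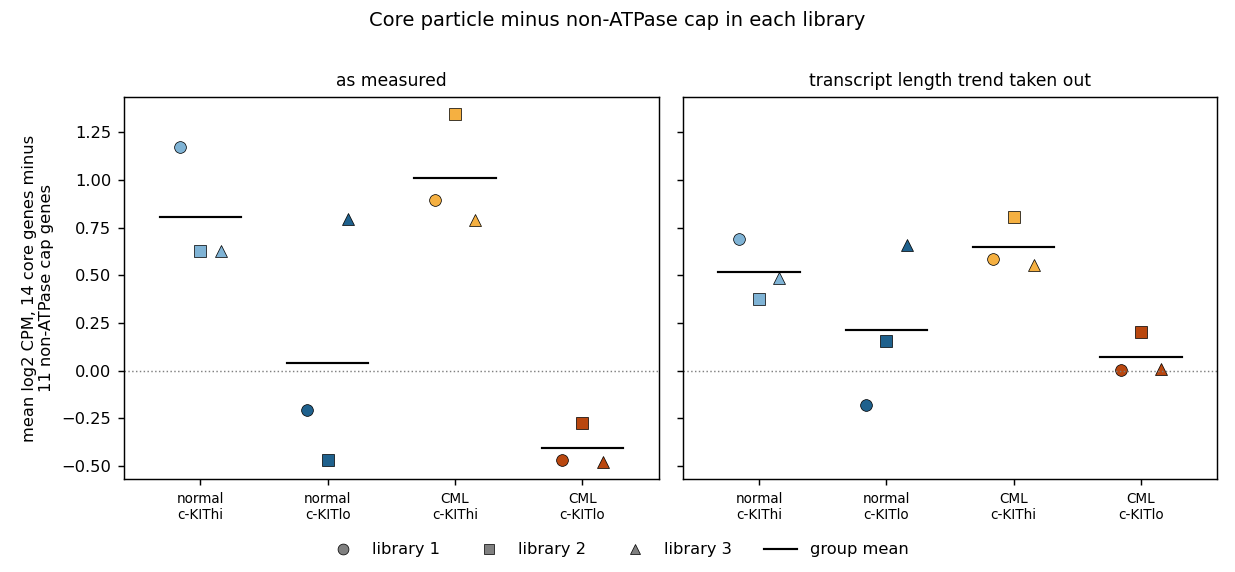
Mean log2 CPM of the 14 core genes minus that of the 11 non-ATPase cap genes in each library, as measured and with the trend on main transcript length taken out, with 1 symbol per library and a line at the group mean. The measured values of the CML c-KITlo libraries lie at -0.47, -0.27 and -0.48, below those of all CML c-KIThi libraries.

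Transcript length moved with this contrast. The median length of the main transcript was 1201 bases in the alpha ring, 899 in the beta ring, 1614 among the ATPases, 1904 in the non-ATPase cap and 2664 among the activators and inhibitor. Across the 36 genes, Spearman's rho between the length and the log2 fold change between the CML gates was 0.66, and it was 0.48 across 14647 genes with an annotated length. In normal cells the values were 0.33 and 0.10. Genes of 1 set of libraries share depth and composition, so these are descriptions across genes. With the length trend taken out of each library, core minus cap was 0.59, 0.80 and 0.56 in CML c-KIThi and 0.00621, 0.21 and 0.00944 in CML c-KITlo libraries, still without overlap, and the difference between the gates went from -1.42 to -0.57. In the normal gates it was 0.69, 0.38 and 0.49 in c-KIThi and -0.18, 0.15 and 0.66 in c-KITlo libraries, and the difference went from -0.77 to -0.31. With the same correction, which was chosen after the data had been seen, the core median between the CML gates was -0.51 beside -0.14 over all genes, the non-ATPase cap median was -0.35, and 0 of the 36 genes passed edgeR's test. The 3 genes called without it moved in different ways, since Psma3 went from -1.75 to -2.49 (edgeR adjusted p = 0.0605), Psma7 to -0.68 (edgeR adjusted p = 0.294) and Psmd2 from 1.77 to 0.98 (edgeR adjusted p = 0.289). For Psma3 the correction used the transcript of 2846 bases. Coding transcripts of 859 and 312 bases are also annotated, so its corrected value depends on that choice. A correction on the summed exonic length gave a core median of -1.42 beside -0.17 over all genes, a difference in core minus cap of -0.85, and 1 gene that passed, Psma7. Beyond these corrections, the part of transcript length in the difference was not tested.

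**Figure D5:**
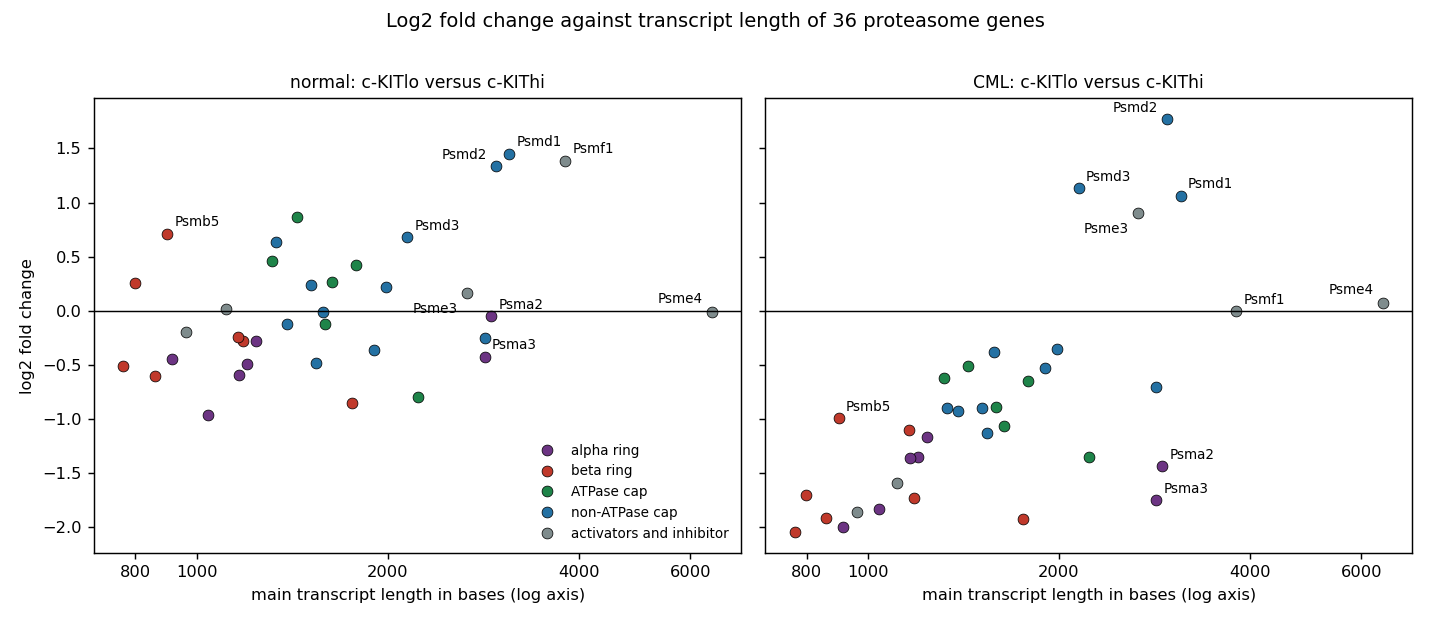
Length of the main transcript of each proteasome gene (log axis, bases) against its log2 fold change of c-KITlo over c-KIThi in CML and in normal cells, with 1 point per gene marked by sub-complex. Spearman's rho over the 36 genes is 0.66 in CML and 0.33 in normal cells, and Psmb3 is lowest in CML, at -2.05.

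CML and normal cells were also compared within each gate. These comparisons use the same libraries as those between the gates, so their values are given side by side and are not independent. Between CML and normal c-KITlo cells, 0 of 36 genes passed edgeR's test, against 0.0954% of all genes tested (0.0681% that rose and 0.0273% that fell), with 10 at an unadjusted p below 0.05, all below 0. DESeq2 and limma-voom each called 0. The median log2 fold change was -0.90, with 33 of 36 genes below 0, beside -0.13 over all genes, and it was -0.32 beside 0.000424 over all genes without normal c-KITlo replicate 3. The genes with the smallest p were Psmb6 (-1.69 ± 0.63, edgeR adjusted p = 0.28), Psmd6 (-0.97 ± 0.37, edgeR adjusted p = 0.281) and Psmc4 (-1.10 ± 0.43, edgeR adjusted p = 0.299). With the main transcript length trend taken out, the core median was -0.77 and the non-ATPase cap median -0.67, beside -0.72 over all genes. Taking the exonic length trend out gave -1.27, -1.03 and -0.79.

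Psmd6, a lid subunit, was at 240.1, 199 and 387 CPM in normal c-KITlo and 136, 154 and 131 CPM in CML c-KITlo libraries, without overlap. Psmc1, Psmc4, Psmd12 and Psmf1 were also lower in all CML c-KITlo libraries, so that 5 genes were separated downward and 0 upward, where 7.84% and 12.3% of all genes were, 20.1% in either direction. Psmb6, in contrast, overlapped, since normal c-KITlo replicate 2 (418 CPM) lay among the CML values. Without normal c-KITlo replicate 2, 5 genes (Psma7, Psmb6, Psmc3, Psmc4 and Psmd4) passed.

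Between CML and normal c-KIThi cells, 0 of 36 genes passed edgeR's test, against 0.0204% of all genes tested, and 0 had an unadjusted p below 0.05 (1 in DESeq2 and 8 in limma-voom, of which 0 were called). The median log2 fold change was 0.24 beside 0.030 over all genes, and it turned to -0.12 with the length trend taken out, whether on exonic or on main transcript length. Psme3 had the smallest p and was at 177, 257 and 205 CPM in normal and 151, 109 and 134 CPM in CML c-KIThi libraries (-0.70 ± 0.33, edgeR adjusted p = 0.753). Psma3 was at 114, 78.2 and 77.9 CPM and 136, 145 and 186 CPM (0.79 ± 0.42, edgeR adjusted p = 0.801). Psmd12, which encodes a lid subunit, was at 328, 225 and 233 CPM and 193, 179 and 193 CPM (-0.47 ± 0.33, edgeR adjusted p = 0.87). The groups were separated for Psme3 and Psmd12, lower in CML, and for Psma3 and Psmc3, higher in CML, and 2 genes in each direction compare with shares of 6.36% and 7.97% of all genes, 14.3% in either direction.

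Whether the difference between the gates itself differed between CML and normal cells was tested with an interaction term. None of the 36 genes passed edgeR's test, against 0% of all genes tested, and 6 had an unadjusted p below 0.05, all with a more negative difference in CML (Psma3, Psmb6, Psmc3, Psmc4, Psmd4 and Psmf1). DESeq2 and limma-voom each called 0. The smallest p was that of Psmd4 (-1.53 ± 0.62, edgeR adjusted p = 0.389), which was at 321, 279 and 331 CPM in normal c-KIThi, 453, 225 and 769 CPM in normal c-KITlo, 629.6, 349.7 and 325 CPM in CML c-KIThi and 248, 201 and 252 CPM in CML c-KITlo libraries. Psmf1 (-1.39 ± 0.59, edgeR adjusted p = 0.416) and Psmc4 (-1.37 ± 0.61, edgeR adjusted p = 0.423) followed. In these 3 genes the normal c-KITlo group contained the highest library. The median over the 36 genes was -0.98, beside -0.16 over all genes. With the main transcript length trend taken out, the core median was -0.69 and the non-ATPase cap median -0.45, beside -0.63 over all genes. Taking the exonic length trend out gave -1.12, -0.90 and -0.70. Since no gene passed, the calls between the gates in CML are not shown to differ from normal cells.

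Genes that work with the proteasome were examined in lists by function. Of 8 tested genes of proteasome assembly, 0 rose and 3 fell between the CML gates, and in normal cells 0 rose and 1 fell, where 5.53% and 3.4% of all genes fell. Psmg4, which encodes part of a chaperone that pairs the alpha subunits, was at 258, 1060.2 and 361 CPM in CML c-KIThi and 33.0, 37.3 and 42.1 CPM in CML c-KITlo libraries (-3.90 ± 0.73, edgeR adjusted p = 0.0153), and at 781, 672 and 463 CPM and 97.5, 21.5 and 171 CPM in the normal gates (-2.72 ± 0.69, edgeR adjusted p = 0.0406). In both backgrounds every c-KITlo library was below every c-KIThi library. Pomp, the chaperone of beta ring maturation, was at 1325, 1419 and 716 CPM and 185, 224 and 202 CPM in CML and fell (-2.50 ± 0.61, edgeR adjusted p = 0.0296), as did Psmg2, at 260.1, 219 and 211 CPM and 70.1, 65.2 and 53.7 CPM (-1.87 ± 0.40, edgeR adjusted p = 0.0201). With the main transcript length trend taken out, Psmg4 was at -1.65 (edgeR adjusted p = 0.0867) and Psmg2 at -0.86 (edgeR adjusted p = 0.318) between the CML gates and Pomp at -2.17 (edgeR adjusted p = 0.0594), so that none of the 3 passed. In the normal gates Psmg4 went to -1.37 (edgeR adjusted p = 0.0715) under the same correction and did not pass.

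Among 7 other cap subunits and cap-bound enzymes, 1 gene fell in each background, beside 5.53% of all genes in CML and 3.4% in normal cells. It was Sem1, a very small cap subunit, at 1290.0, 3803 and 1702 CPM in CML c-KIThi and 189.8, 221 and 175 CPM in CML c-KITlo libraries (-3.53 ± 0.70, edgeR adjusted p = 0.0163) and at 3331, 2012 and 1473 CPM and 319, 97.0 and 693 CPM in the normal gates (-2.62 ± 0.68, edgeR adjusted p = 0.042). Its groups did not overlap in either background, and it still passed in both with the main transcript length trend taken out (-3.10 in CML and -2.77 in normal cells). With the exonic length trend taken out it passed in CML (-4.01) but not in normal cells (-2.65, edgeR adjusted p = 0.0523), and the normal call was also lost with limma-voom (adjusted p = 0.18) and in the fit to the normal libraries alone (edgeR adjusted p = 0.163). It thus went with the core in direction rather than with Psmd1 and Psmd2. Most cap genes did so between the CML gates, where 6 of 6 ATPase and 8 of 11 non-ATPase genes were below 0. In the normal gates 2 of 6 and 5 of 11 were below 0.

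Of the 3 immunoproteasome subunits, which replace the catalytic beta subunits in immune cells, none passed edgeR's test in either background, although all 3 had an unadjusted p below 0.05 between the CML gates and DESeq2 and limma-voom called all 3 lower there. Psmb8 was at 1275, 898 and 537 CPM in CML c-KIThi and 360.1, 370.3 and 404 CPM in CML c-KITlo libraries (-1.26 ± 0.52, edgeR adjusted p = 0.145). Psmb9 was at 747, 616 and 358 CPM and 162, 163 and 159 CPM (-1.83 ± 0.53, edgeR adjusted p = 0.0512). Psmb10 was at 782, 664 and 373 CPM and 175, 175 and 191 CPM (-1.75 ± 0.56, edgeR adjusted p = 0.0691). All 3 were lower in every CML c-KITlo library than in any CML c-KIThi library, as were 23.6% of all genes tested. In the normal gates Psmb8 was at 797, 757 and 562 CPM and 1193, 415 and 2065 CPM, Psmb9 at 574, 279.9 and 288 CPM and 335, 155 and 701 CPM, and Psmb10 at 695, 373 and 375 CPM and 680.5, 174 and 1021 CPM, with overlap in each and the highest c-KITlo value in replicate 3. Of the core subunits restricted to other tissues, Psmb11, a thymic subunit, had 0 counts in all 12 libraries, and Psma8, a testis subunit, was at 7.79 to 97.6 CPM.

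Upstream of the proteasome, a list of 8 genes held the NRF1 factor (Nfe2l1), genes of the pathway by which it induces proteasome genes, and the related factor Nfe2l2. In normal cells 1 of the 8, Nfe2l2, passed edgeR's test and rose, and in CML none passed (2 at an unadjusted p below 0.05 in each). Of all genes tested, 3.1% rose in normal cells and 2.91% in CML. Between the CML gates, Ubqln4 passed in 5 of the 21 alternative settings, Vcp in 2, and Ubqln1 and Ngly1 in 1 each. Nfe2l2, which encodes the related oxidative stress factor NRF2, was at 55.4, 66.7 and 84.1 CPM in normal c-KIThi and 342, 102 and 232 CPM in normal c-KITlo libraries (1.71 ± 0.43, edgeR adjusted p = 0.0397), and at 87.2, 114 and 158 CPM and 140.2, 139.8 and 142 CPM in CML (0.24 ± 0.42). Nfe2l1 itself ranged from 0.166 to 270.0 CPM over the 12 libraries. Of 6 ubiquitin and E1 genes, Uba1, the main ubiquitin-activating enzyme, rose in CML from 147, 119.8 and 144 CPM to 603, 490.0 and 517 CPM (1.97 ± 0.54, edgeR adjusted p = 0.0427), and its value with the main transcript length trend taken out was 0.90 (edgeR adjusted p = 0.554).

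Of the shuttle receptors, which carry ubiquitinated proteins to the proteasome or to autophagy, Sqstm1 rose in normal c-KITlo cells. This gene, which encodes the autophagy receptor p62, was at 116, 79.2 and 91.9 CPM and 471, 251 and 345 CPM in the normal gates (1.90 ± 0.36, edgeR adjusted p = 0.0197), and at 174, 96.3 and 107 CPM and 262, 280.0 and 324 CPM in CML (1.199 ± 0.36, edgeR adjusted p = 0.0561). Its groups did not overlap between the gates in either background. Mrnip covers 17.3% of the exonic length of Sqstm1, and the libraries do not keep strand, so reads in that stretch cannot be assigned to 1 gene. Over the 21 alternative settings, the calls between the CML gates held in 17 for Sem1, 15 for Psmg4, 14 for Psmg2, 13 for Pomp and 10 for Uba1, and those in normal cells in 15 for Sqstm1, 9 for Sem1, 8 for Psmg4 and 7 for Nfe2l2. None of the related genes named here passed edgeR's test in the comparisons of CML with normal cells or in the interaction.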

How the data were processed

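RNA was extracted from sorted cells, amplified with the SMARTer Ultra Low Input kit and made into Nextera XT libraries, which do not keep strand. Per the labels and the study's methods, the authors aligned reads with STAR 2.5.3a to GRCm38 and counted reads per gene with HTSeq 0.9.1 and the deposited values are raw counts. The submitters' processing notes also name DESeq2 1.22.2 and DRAGEN. Rows that name no gene were left out. Among them were the entries matching several places, at 58.9% to 66.9% in c-KIThi and 34.3% to 52.3% in c-KITlo libraries.

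Counts were tested with edgeR 4.0.16 (R 4.3.3). Genes were kept with filterByExpr, scaled with TMM and fitted over all 12 libraries with 1 mean per group, and the quasi-likelihood F test was used with Benjamini-Hochberg adjustment over 14676 genes, at an adjusted p below 0.05. CPM use TMM-scaled library sizes, and means of log2 CPM add 1 count. The SE of a log2 fold change was derived from the test, as its size divided by the square root of F. Alternatives were median-of-ratios factors, DESeq2 1.42.0, limma-voom (limma 3.58.1), no filter, only the groups compared, a replicate block, thinning to 7753878 counts, loess length offsets (span 0.5) and leaving out each library. Scripts were tested on simulated data. Positions and lengths come from a GENCODE annotation of GRCm38, in which 48435 of 48795 genes were found. Precision is limited by 3 libraries per group, and the counts have no molecular identifiers.

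The 36 genes, the lists of related genes and the tests were chosen with earlier results of these data known. Values per library are given for the catalytic subunits, Psmd4, Psmd14, Psme1, Psme2 and Psme4, for the gene with the smallest p in each sub-complex between the gates, for the 3 smallest p in the other comparisons, for related genes that passed in any comparison (1 such gene is not reported here) and for the immunoproteasome subunits, while Psma7, Psmd3 and other genes that complete a count were named after their values were seen. Paaf1 was not analysed here.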

Additional observations from a re-analysis of the deposited data

How the results depend on the processing

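The number of proteasome genes called between the CML gates, 3 with edgeR, was 6 with median-of-ratios factors, 20 with DESeq2, 28 with limma-voom, 10 with no filter, 23 with only those groups fitted, 6 with libraries thinned to equal depth, 1 with the exonic length trend and 0 with the main transcript length trend taken out, and 0 to 15 when 1 library was left out. In normal cells, 0 became 3 with DESeq2, 1 with the exonic length trend taken out and 0 to 4 with 1 library left out, for CML against normal c-KITlo cells 1 with no filter and 0 to 5, for the c-KIThi gate 0 throughout, and for the interaction 0 to 1. The median log2 fold change between the CML gates was -1.03, -0.51 with the main transcript length trend taken out and -1.20 to -0.87 with 1 library left out. The median for CML against normal c-KIThi cells turned from 0.24 to -0.12 under both length corrections, and that for the c-KITlo gate ran from -1.22 to -0.32. Core minus non-ATPase cap between the CML gates was -1.42, and -0.85 and -0.57 under the length corrections, and in normal cells -0.77, -0.63 and -0.31. The length corrections moved the median of all genes in normal cells from 0.16 to 0.53 (exonic) and 0.48 (main transcript). For CML against normal c-KITlo cells they moved it from -0.13 to -0.79 (exonic) and -0.72 (main transcript).

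Deviations from the group mean had correlations of -0.045 to 0.12 between samples with the same replicate number. With means of 3 libraries, these values cannot decide whether the numbers pair the samples. With the replicate number as a block, 0 genes were called in each of the 5 comparisons, against 3 between the CML gates without it, and 3, 4, 2 and 3 of 6 samples correlated best with their own number in the 4 comparisons of groups.

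Of 69 gene results under the alternatives, 1221 of 1446 values kept their side of the threshold, 86 passed newly, 139 no longer passed and 0 were called in the opposite direction. Most of the 69 results had not passed in the main fit, and only those that had passed could be lost. The sign was the same as in the main fit in 1377 values and the other in 69. Psma3 passed in 9, Psma7 in 10 and Psmd2 in 12 of 21 settings. Depth limits low genes such as Psme4, and the causes of these changes were not tested.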
